A study of Mus musculus with 24 samples.

Results

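The genes described here are 7 transcription factors of the brown fat and skeletal muscle lineages: En1, Pax3, Myog, Prrx1, Twist2, Tbx15 and Mecom. They were taken by name from the authors' annotation of a reduced representation bisulfite sequencing (RRBS) table of infant mouse brown adipose tissue (BAT), in which 219 of 65535 MspI fragments carried 1 of these names. RRBS cuts DNA with the enzyme MspI, which cuts at a short CpG-containing site whatever its methylation, converts unmethylated cytosines with bisulfite, and counts for each fragment how many CpG readings, here named calls, were methylated. The study compared 12 libraries of DDT litters with 12 libraries of vehicle (VEH) litters, all from C57BL/6J females at postnatal day 12. The dams had been gavaged with a DDT mixture or, for VEH, with olive oil alone, from mid-gestation into the first week after birth, and a library pooled the BAT of several female littermates, so the litter was the replicate.

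Brown adipocytes and skeletal myocytes of the trunk arise from the dermomyotome, an epithelial sheet of the embryonic somite whose central cells express En1 and whose muscle precursors depend on Pax3. Progenitors that start Myog, a basic helix-loop-helix factor, become differentiating muscle, whereas mesenchymal and fat progenitors express factors such as Prrx1, Twist2, Tbx15 and Mecom. Methylation of CpGs around the start of a gene is usually low, and developmental regulators often lie in long stretches of unmethylated DNA. BAT is a mixture of cell types, and in a bulk sample a change in the share of cells that carry a methylated allele cannot be told apart from a change within 1 cell type.

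The methylation level of a fragment was the percentage of its calls that were methylated, and needed 10 or more calls in a library. Fragments with such levels in 8 or more VEH and 8 or more DDT libraries were tested. Of the 219 fragments 90 were tested, 15 of 42 in En1, 31 of 59 in Pax3, 2 of 6 in Myog, 9 of 13 in Prrx1, 16 of 41 in Twist2, 13 of 27 in Tbx15 and 4 of 31 in Mecom. The 129 fragments without a test had a median length of 129 bp and a median of 0 calls in the typical library, against 60 bp and 201.5 calls for the tested ones. The libraries held 8371958 to 13768991 calls in VEH and 9895508 to 14124652 in DDT. DDT replicates 4 and 12 stood apart from the rest. DDT replicate 4 had a level at 56 of the 90 fragments, with a median of 29 calls, and its levels lay on average 17.3 percentage points from the fragments' medians over all libraries. DDT replicate 12 had a level at 85 fragments and lay 7.17 points away. The VEH libraries lay 2.55 to 3.70 points away and the other DDT libraries 2.28 to 5.62, of which DDT replicate 3 was the highest. The table reaches only into chromosome 3, so that markers that would check the BAT label, such as Ucp1, were not analysed here.

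The following fragments carry the contrasts described below: the Myog pair, which was methylated inside the first exon, and low fragments set beside high ones of other genes. They are given 5′ to 3′ on the plus strand of GRCm38, with each CpG in capitals. All fragments start at the cut MspI site.
Myog, chr1:134290153-134290185, coding exon: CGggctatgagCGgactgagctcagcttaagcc
Myog, chr1:134290186-134290298, coding exon: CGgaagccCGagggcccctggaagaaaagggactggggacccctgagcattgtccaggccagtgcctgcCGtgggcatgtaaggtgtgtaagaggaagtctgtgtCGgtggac
En1, chr1:120602224-120602338, upstream: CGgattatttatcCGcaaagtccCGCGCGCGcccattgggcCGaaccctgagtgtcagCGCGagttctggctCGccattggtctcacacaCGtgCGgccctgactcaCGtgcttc
En1, chr1:120603649-120603766, coding exon: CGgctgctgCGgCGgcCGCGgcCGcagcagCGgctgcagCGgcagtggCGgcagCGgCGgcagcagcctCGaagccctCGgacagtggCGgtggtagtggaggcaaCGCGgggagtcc
Pax3, chr1:78217520-78217583, upstream: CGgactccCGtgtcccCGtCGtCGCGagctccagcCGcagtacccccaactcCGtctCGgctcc
Pax3, chr1:78258806-78258867, upstream: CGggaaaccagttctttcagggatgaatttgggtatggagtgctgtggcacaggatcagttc
Twist2, chr1:91801356-91801445, upstream: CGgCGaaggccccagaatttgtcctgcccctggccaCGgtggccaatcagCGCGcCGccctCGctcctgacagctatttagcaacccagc
Prrx1, chr1:163312451-163312499, coding exon: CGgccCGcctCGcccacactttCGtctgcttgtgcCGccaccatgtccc
Prrx1, chr1:163312500-163312569, coding exon: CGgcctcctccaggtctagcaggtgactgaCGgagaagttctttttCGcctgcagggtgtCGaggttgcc
Tbx15, chr3:99252507-99252540, intron: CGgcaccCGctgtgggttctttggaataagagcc
Mecom, chr3:30012397-30012444, intron: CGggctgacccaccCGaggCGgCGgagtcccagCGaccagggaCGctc
Mecom, chr3:30256826-30256904, intron: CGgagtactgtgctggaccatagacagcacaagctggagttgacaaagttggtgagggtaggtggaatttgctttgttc

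The first question was how these genes were methylated in BAT of VEH litters. Fragments near the starts of En1, Twist2 and Tbx15 were under 20%, those within 1000 bp of the Pax3 start ran from 4.26% to 27.0%, and Myog was methylated inside its first exon. Fragments far from the starts included high ones and a low block upstream of Pax3. Over the 90 fragments the median VEH level was 12.4%, against 11.02% over all 20225 tested fragments. Of the 90, 43 (47.8%) were under 10%, 30 (33.3%) between 10% and 60% and 17 (18.9%) over 60%, against 48.1%, 22.7% and 29.2% of all tested fragments. No test was run on these shares, since neighbouring fragments of a gene are not independent.

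A difference from the table as a whole was in fragments to which the authors' annotation gave no CpG island. Of the 90 fragments 66 had no island label, and their median VEH level was 16.7%, against 51.4% for all 12250 such fragments. Among these 66, 25 (37.9%) were under 10%, against 27.7% in the table. Of the 25, 18 lay in a 1000 bp window that was itself island-like (GC over 50% and a CpG observed to expected ratio over 0.6). Most of the 25, and most of the 18, were Pax3 fragments, many of them neighbours, so these shares do not describe the 7 genes evenly. In windows that were not island-like, the median was 39.2% over 44 fragments of these genes and 73.5% over the table. In island-like windows the order was the other way, with 6.56% over 46 fragments and 3.98% over the table.

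En1, the homeobox factor of the central dermomyotome, lies on chr1:120602418-120607992 on the plus strand. Its 10 tested fragments from 5847 bp upstream to 1420 bp downstream of the start ranged from 1.17% to 19.4% in VEH. The fragment nearest to the start, 80 bp upstream and holding 13 CpGs, was at 13.1% ± 2.75 (SD, n = 12). The lowest, in a coding exon 1231 bp downstream with 16 CpGs, was at 1.17% ± 2.13 (n = 10). Farther into the gene levels were higher, and 3 fragments 1518 to 2451 bp downstream were at 28.8% to 32.8%. The 2 fragments more than 100000 bp upstream were at 76.5% and 78.2% ± 5.25 (n = 12), the second of them, at 133950 bp, being the highest of the gene.

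Pax3, the paired-box factor of muscle progenitors, lies on chr1:78101267-78197134 on the minus strand. Its fragment nearest to the start, 137 bp downstream in a coding exon, was at 4.26% ± 5.48 (n = 12). The other 3 within 1000 bp of a start were at 6.00%, 8.41% and 27.0%, the last, 269 bp downstream, with an SD of 14.2 (n = 11) and a median of 20 calls. A compact block of 13 tested fragments and 121 CpGs at chr1:78216059-78217702, 18925 to 20450 bp upstream of the gene, was at 1.11% to 17.6%. All 13 lay in island-like windows and outside any GENCODE gene. Its lowest fragment, with 9 CpGs, was also the lowest of the gene, at 1.11% ± 0.692 (n = 12). A second low stretch lay in an intron 7017 to 7141 bp downstream, where 3 fragments with 27 CpGs were at 2.16% to 8.25%. The 4 fragments more than 20000 bp downstream or 60000 bp upstream were at 80.3% to 91.8%. The highest of these, 61672 bp upstream with 1 CpG, was at 91.8% ± 2.57 (n = 12).

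Myog, which drives the last step of muscle differentiation, lies on chr1:134289989-134292548 on the plus strand and had 2 tested fragments, both in its first coding exon. They abut each other. The fragment that starts 164 bp from the gene start, with 2 CpGs, was at 78.4% ± 1.99 in VEH (n = 12), with a lowest library at 75.2%, a median of 78.0% and a highest at 82.0%. The next fragment, 197 bp from the start with 4 CpGs, was at 50.1% ± 5.26 (n = 12), from 42.8% through a median of 52.1% to 57.6%. The second fragment was lower than the first in all 12 VEH libraries and in all 11 DDT libraries with both levels. Among the 5662 tested fragments of the table within 500 bp of the start of their gene in the authors' annotation, the median VEH level was 3.97%, and 99.0% and 98.3% of them were lower than these 2 Myog fragments. Against the 1078 such fragments outside CpG islands, with a median of 5.63%, the shares were 95.1% and 92.4%. The 14 fragments of the other genes within 500 bp of the start, inside islands or not, were at 1.0% to 19.8%, below both Myog fragments. Of these 14, 7 were in Twist2, 3 in En1, 3 in Tbx15 and 1 in Pax3. Prrx1 and Mecom had 0. The 300 bp promoter of Myog in RefSeq (GRCm38.p6) held 9 CpGs, against 6 for Prrx1, 9 and 19 for the 2 Mecom promoters, 23 for En1, 25 for Twist2 and a median of 7 over 32851 promoters.

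Prrx1, a homeobox factor of mesenchymal progenitors, lies on chr1:163245119-163313710 on the minus strand. Its 4 fragments 1099 to 1296 bp downstream of a start alternated between lower and higher levels over short distances. The lowest, in a coding exon with 5 CpGs, was at 2.08% ± 0.506, and the abutting fragment with 4 CpGs, which was the nearest to the annotated start, was at 18.2% ± 2.65 (n = 12 each). The second was higher in all 12 VEH libraries. Upstream, 3 fragments 1358 to 4691 bp away ranged from 10.5% to 52.2%. Farther out, the fragment 64376 bp upstream, with 1 CpG, was the highest at 85.1% ± 11.3 (n = 12).

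Twist2, a basic helix-loop-helix factor of dermal and other mesenchyme that restrains muscle differentiation, lies on chr1:91801461-91848028 on the plus strand. Its 8 fragments from 428 bp upstream to 1136 bp downstream of the start were at 1.0% to 11.9%. The lowest, which ends 16 bp before the start and overlaps the annotated gene Gm29100, was at 1.0% ± 1.22 (n = 12). The 6 fragments more than 40000 bp upstream were at 58.5% to 97.0%, and the highest, 114530 bp upstream with 1 CpG, was at 97.0% ± 2.91 (n = 12). In the intron, 36615 bp downstream, the abutting fragments at chr1:91838085-91838133 and chr1:91838134-91838249 were at 68.2% ± 6.56 and 23.4% ± 4.86 (n = 12 each), in this order in all 12 VEH libraries. This pair was singled out after its values were seen, as the widest step between abutting fragments of the 7 genes.

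Tbx15, a T-box factor expressed in brown adipocytes, lies on chr3:99240381-99354259 on the plus strand and has annotated starts at 99240381 and 99253760. Levels at both starts were lower than those of the DNA between them. The 3 fragments at the upstream start were at 3.08% to 19.8%, with 3.08% ± 2.66 (n = 11) for the fragment that spans the start. The 5 fragments at the downstream start were at 2.74% to 16.6%, and the one 34 bp past that start, with 11 CpGs, was the lowest of the gene at 2.74% ± 0.603 (n = 12). The 3 fragments between the starts were at 36.4% to 49.6%, and the highest of the gene was among them, 1220 bp before the downstream start, at 49.6% ± 6.39 (n = 12). No tested fragment of Tbx15 was over 60%.

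Mecom, a locus that encodes the zinc finger proteins EVI1 and PRDM3, lies on chr3:29951296-30548008 on the minus strand. Only 4 of its fragments were tested. The fragment in the intron 617 bp past the start of the transcript Mecom-205, which the authors' annotation places 535610 bp from the first start of the gene, was at 2.35% ± 0.708 with 6 CpGs (n = 12). It overlaps the antisense gene Mecomos. The other 3 were at 68.8%, 94.1% and 99.3%, and the highest, with 1 CpG and 18507 bp from the nearest start, was at 99.3% ± 1.07 (n = 12).

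**Figure D1:**
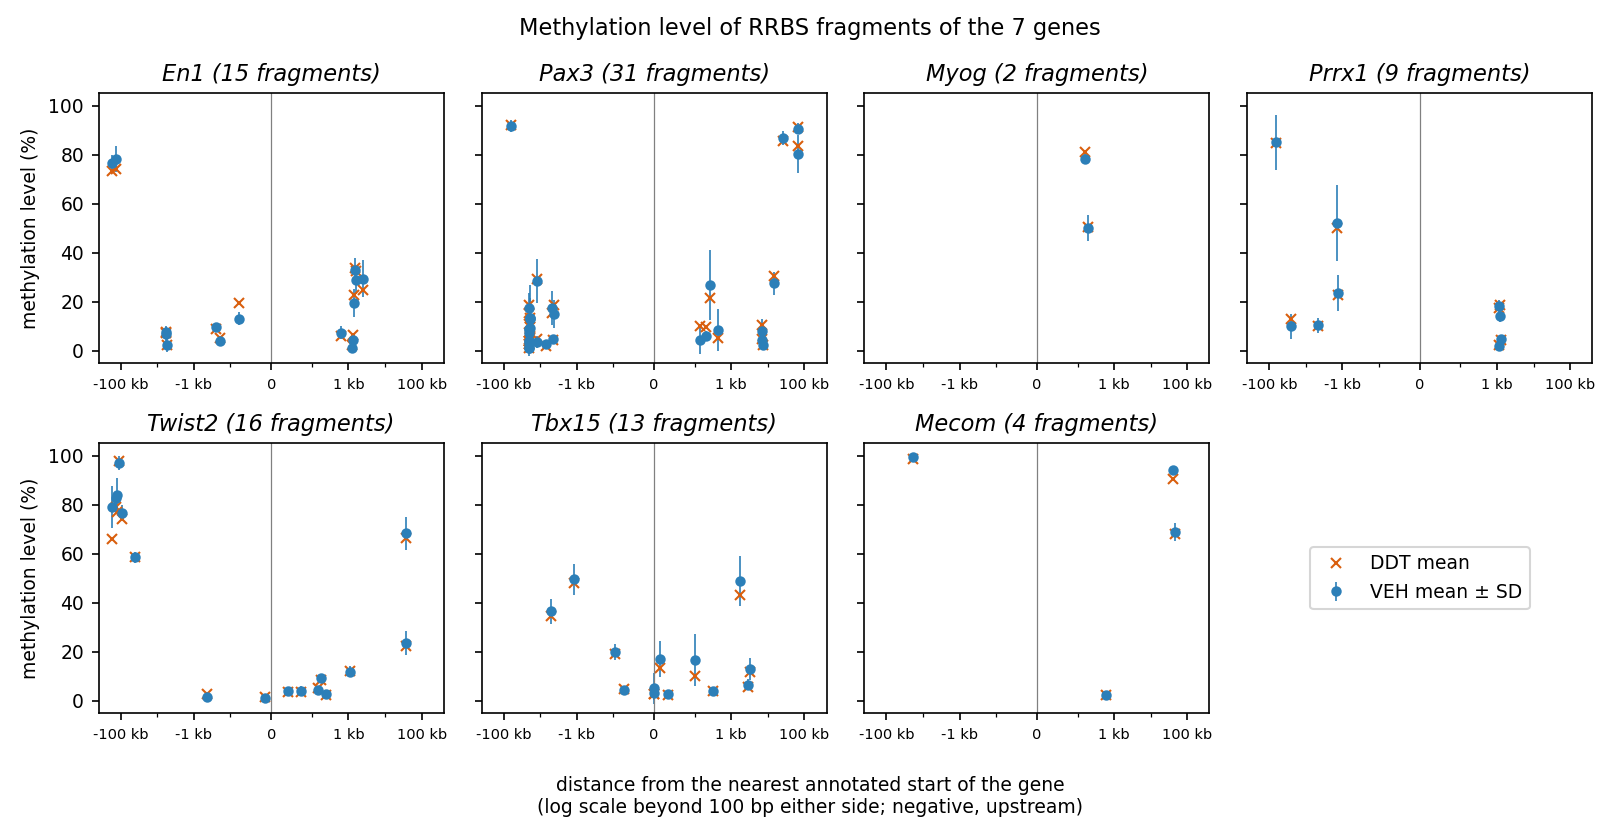
Methylation level (%) of the 90 tested fragments against distance from the nearest annotated start of the gene, on a log scale beyond 100 bp, in 1 panel per gene. Blue circles with bars are VEH means ± SD and orange crosses DDT means; the fragments near the starts of En1, Twist2 and Tbx15 sit at or below 19.8%, and the Myog fragments sit at 50.1% and 78.4%.

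Levels also differed in steps between neighbours. Of 33 pairs of tested fragments that abut each other, 13 differed by more than 10 points in VEH. In 10 of the 13 the order was the same in every VEH library with both levels. The longer fragment was the higher in 19 of 32 pairs of unequal length, and in 19 of the 29 with both under 60%. Reads were 50 bp long, and 14 of the 90 fragments were longer than 100 bp. Whether fragment length bears on these steps was not tested. Within fragments the SD between VEH litters was above the binomial SD of the calls at 78 of 90 fragments, with a median ratio of 1.43. The binomial SD takes calls as independent, but 1 read can give several calls. The ratio therefore does not separate differences between litters from counting error. The median VEH SD was 1.76 points for fragments under 10%, 5.51 for those between 10% and 60%, and 3.29 for those over 60%.

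The second question was whether perinatal DDT moved these levels. None of the 90 fragments passed the adjusted threshold of 0.05 in the ANOVA across all tested fragments, where 0% of the 20225 passed. At an unadjusted p under 0.05 there was 1 fragment of 90 (1.11%), in Myog, against 4.18% of all tested fragments. It was higher in DDT, and 1.25% of all tested fragments were both under 0.05 and higher in DDT. Limma and a quasi-binomial regression likewise called 0 of the 90 at an adjusted 0.05, and 0 and 6 at an unadjusted 0.05, where 3.51% and 7.72% of the table were under it. The smallest adjusted p of the 90, 0.869, was also the smallest in the table. DDT was higher at 39 fragments and lower at 51, with a median difference of -0.179 points, against -0.163 over the table. Without DDT replicates 4 and 12, 0 of 89 fragments were under an unadjusted 0.05, against 4.51% of the table, and DDT was higher at 42 (47.2%) with a median difference of -0.102 points, against 51.0% and 0.0183 points over the table. The p-values rest on the spread between libraries, which holds differences between pooled litters and counting error together. The study itself reported differentially methylated genes in DDT infants at an adjusted p under 0.05. They came from a genome-wide analysis with a dedicated package, which also used an ANOVA F test and Benjamini-Hochberg adjustment. That analysis was not repeated here, and the 0% holds for the fragments and call filter used here.

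The intervals set what could have been seen. The half-width of the 95% confidence interval of the difference had a median of 4.34 points and ranged from 0.613 to 16.6. Of the 90 intervals 89 included 0, and 41 lay wholly within 5 points of 0. At the lowest Prrx1 fragment the difference was 0.174 points (95% interval -0.492 to 0.839), and at the low Mecom fragment it was 0.117 points (-0.702 to 0.937). At the Pax3 fragment nearest to the start the interval ran from -10.8 to 22.4 points.

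**Figure D2:**
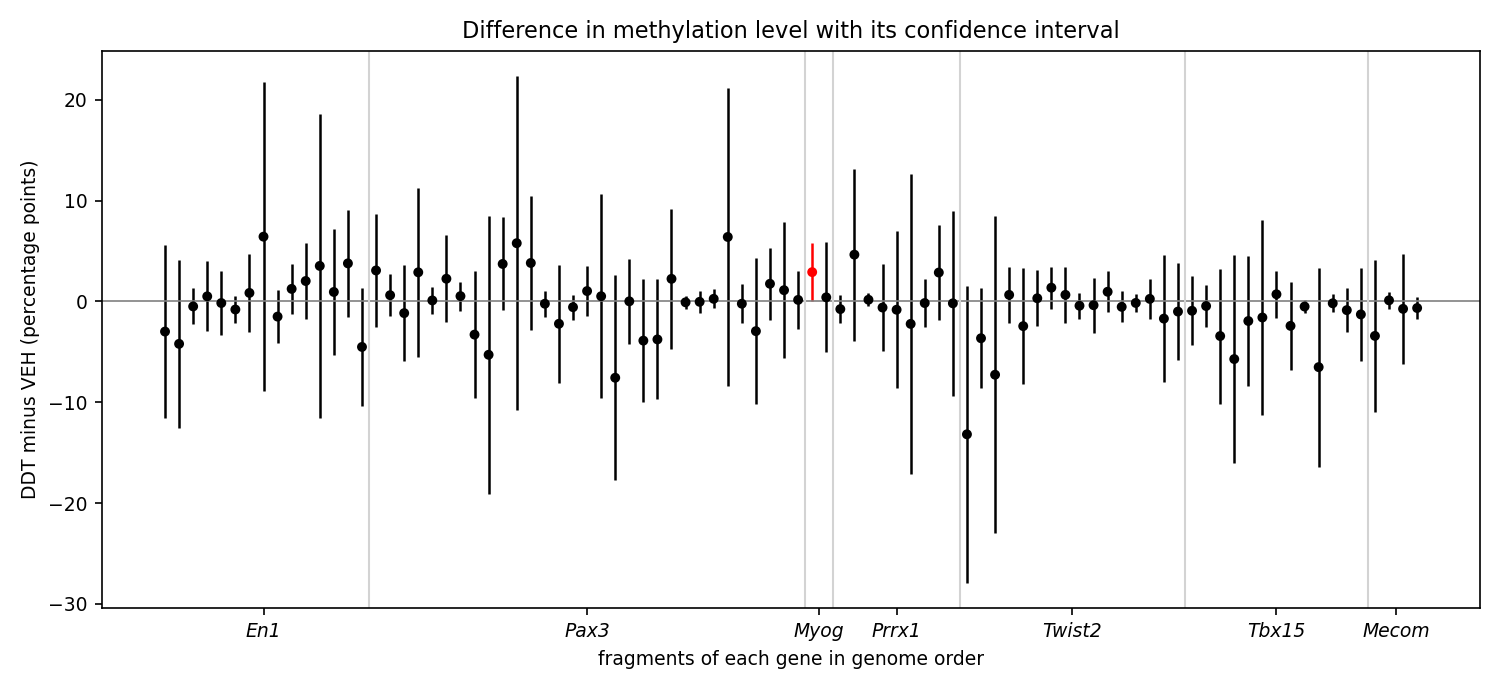
DDT minus VEH difference in methylation level (percentage points) of the 90 tested fragments, grouped by gene in genome order, with points for the difference and lines for the 95% confidence interval. The Myog fragment in red is the only one whose interval, 0.0718 to 5.75, leaves out 0.

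The Myog fragment at chr1:134290153-134290185 was at 81.3% ± 4.31 in DDT (n = 12), with a lowest library at 76.7%, a median of 79.8% and a highest of 90%. The groups overlapped, and 10 of 12 DDT libraries lay above the VEH median. The difference was 2.91 points (SE 1.37, ANOVA across all fragments p = 0.0449, adjusted p = 0.869), and a two-sided permutation test gave p = 0.0351. The 2 highest libraries were DDT replicates 4 and 12, each at 90% from 9 methylated calls of 10, whereas the other 22 libraries had 262 to 1218 calls. The exact 95% binomial interval of 9 of 10 calls runs from 55.5% to 99.7%. It covers counting error only and takes the calls as independent, so it may be too narrow. Without both libraries DDT was at 79.5% ± 1.54 (n = 10), the difference was 1.17 points and p was 0.146 in the ANOVA across all fragments. With calls pooled by weight in a quasi-binomial regression it was 0.786 points (p = 0.316). The abutting Myog fragment was at 50.5% ± 7.21 in DDT (n = 11), a difference of 0.413 points (95% interval -5.03 to 5.85, permutation p = 0.873).

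In the other genes the fragment with the smallest p did not pass 0.05. In Twist2 it lay 168264 bp upstream of the start, at 79.0% ± 8.68 in VEH and 65.8% ± 23.0 in DDT (n = 12 each, permutation p = 0.0765). VEH libraries ran from 65.2% through 80.03% to 95% and DDT libraries from 21.2% through 72.5% to 93.3%. DDT replicates 12 and 4 were the lowest, at 21.2% of 33 calls and 23.1% of 26, and without them the difference of -13.2 points became -4.43. In Pax3 it lay in an intron 207 bp downstream of a start. VEH was at 6.00% ± 1.90 and DDT at 9.73% ± 7.46 (n = 12 each, permutation p = 0.0516), with 11 of 12 DDT libraries above the VEH median. DDT replicate 4 reached 31.7% there, and without replicates 4 and 12 the difference of 3.72 points became 1.93.

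In Tbx15 the fragment 34 bp past the downstream start was at 2.74% ± 0.603 in VEH and 2.24% ± 0.828 in DDT (n = 12 each, permutation p = 0.102). DDT replicate 4 was at 0 of 2356 calls there, and the difference of -0.500 points was -0.296 without it and -0.250 without replicates 4 and 12. In En1 a fragment in the intron 2451 bp downstream was at 29.5% ± 7.74 in VEH (n = 12) and 25.0% ± 5.34 in DDT (n = 11, permutation p = 0.122). In Prrx1 a fragment 25589 bp upstream was at 9.95% ± 5.26 in VEH (n = 12) and 12.8% ± 5.34 in DDT (n = 10, permutation p = 0.220), and the difference of 2.87 points was 1.73 without DDT replicate 3. In Mecom the highest fragment was at 99.3% ± 1.07 in VEH (n = 12) and 98.7% ± 1.39 in DDT (n = 10, permutation p = 0.228), and the difference of -0.647 points was -0.413 without DDT replicate 11. In each of these 4 the groups overlapped.

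**Figure D3:**
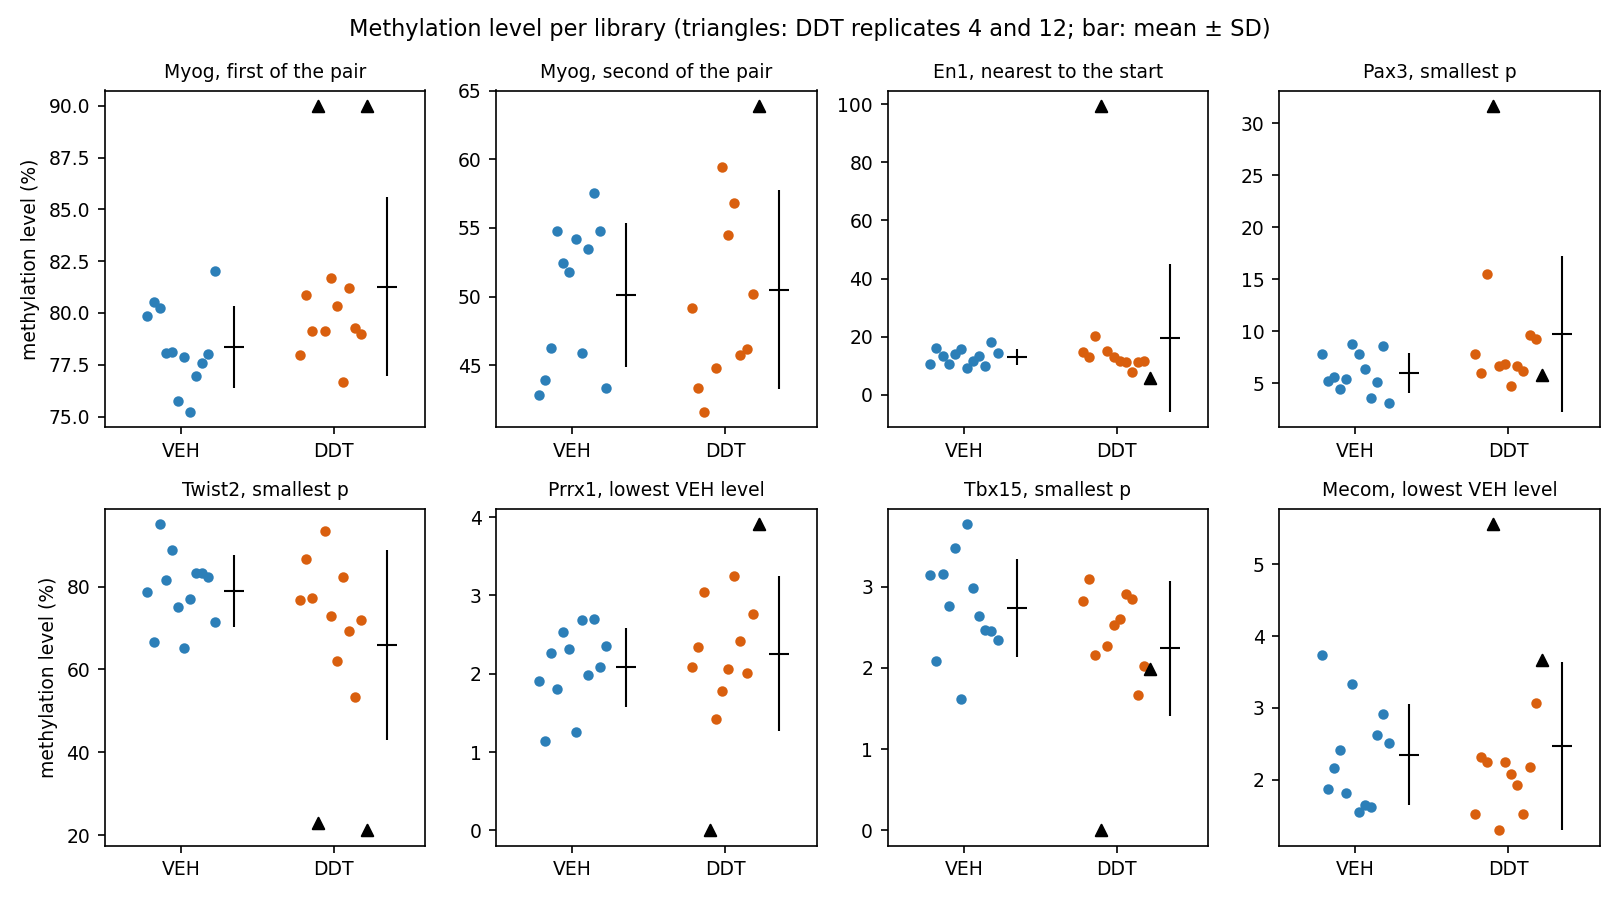
Methylation level (%) per library at 8 fragments, VEH in blue and DDT in orange, with black triangles for DDT replicates 4 and 12 and bars for the mean ± SD of all libraries; each panel has its own axis, and most do not start at 0. In the first Myog panel the triangles sit at 90%, above the other libraries, and in the En1 panel 1 triangle sits at 99.5%.

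Single DDT libraries held values far from the rest at several of these genes. Among 2092 levels of the 90 fragments, 16 lay more than 30 points from the median of their fragment, at 15 fragments, and 14 of the 16 were in DDT libraries: 8 in replicate 4, 5 in replicate 12 and 1 in replicate 3. Some rested on many calls. At the En1 fragment 80 bp upstream of the start, DDT replicate 4 was at 99.5% (764 of 768 calls) whereas the other 23 libraries ran from 5.602% to 20.3%. At the En1 fragment at chr1:120603838-120603935 it was at 99.2% (237 of 239 calls) against 8% to 27.1%. At a Mecom coding exon fragment, chr3:29957318-29957371, it was at 51.1% (434 of 849 calls) against 90.7% to 96.8%. At the Pax3 fragment nearest to the start DDT replicate 3 was at 91.3% (42 of 46 calls) against 0% to 19.8%. These far values were seen in both directions. Over the 90 fragments, split into the 3 classes of VEH level, the median DDT SD was 3.25, 8.91 and 7.92 points. Without any level of replicates 4 and 12 it was 1.99, 6.02 and 5.20. The cause of these values was not tested.

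**Figure D4:**
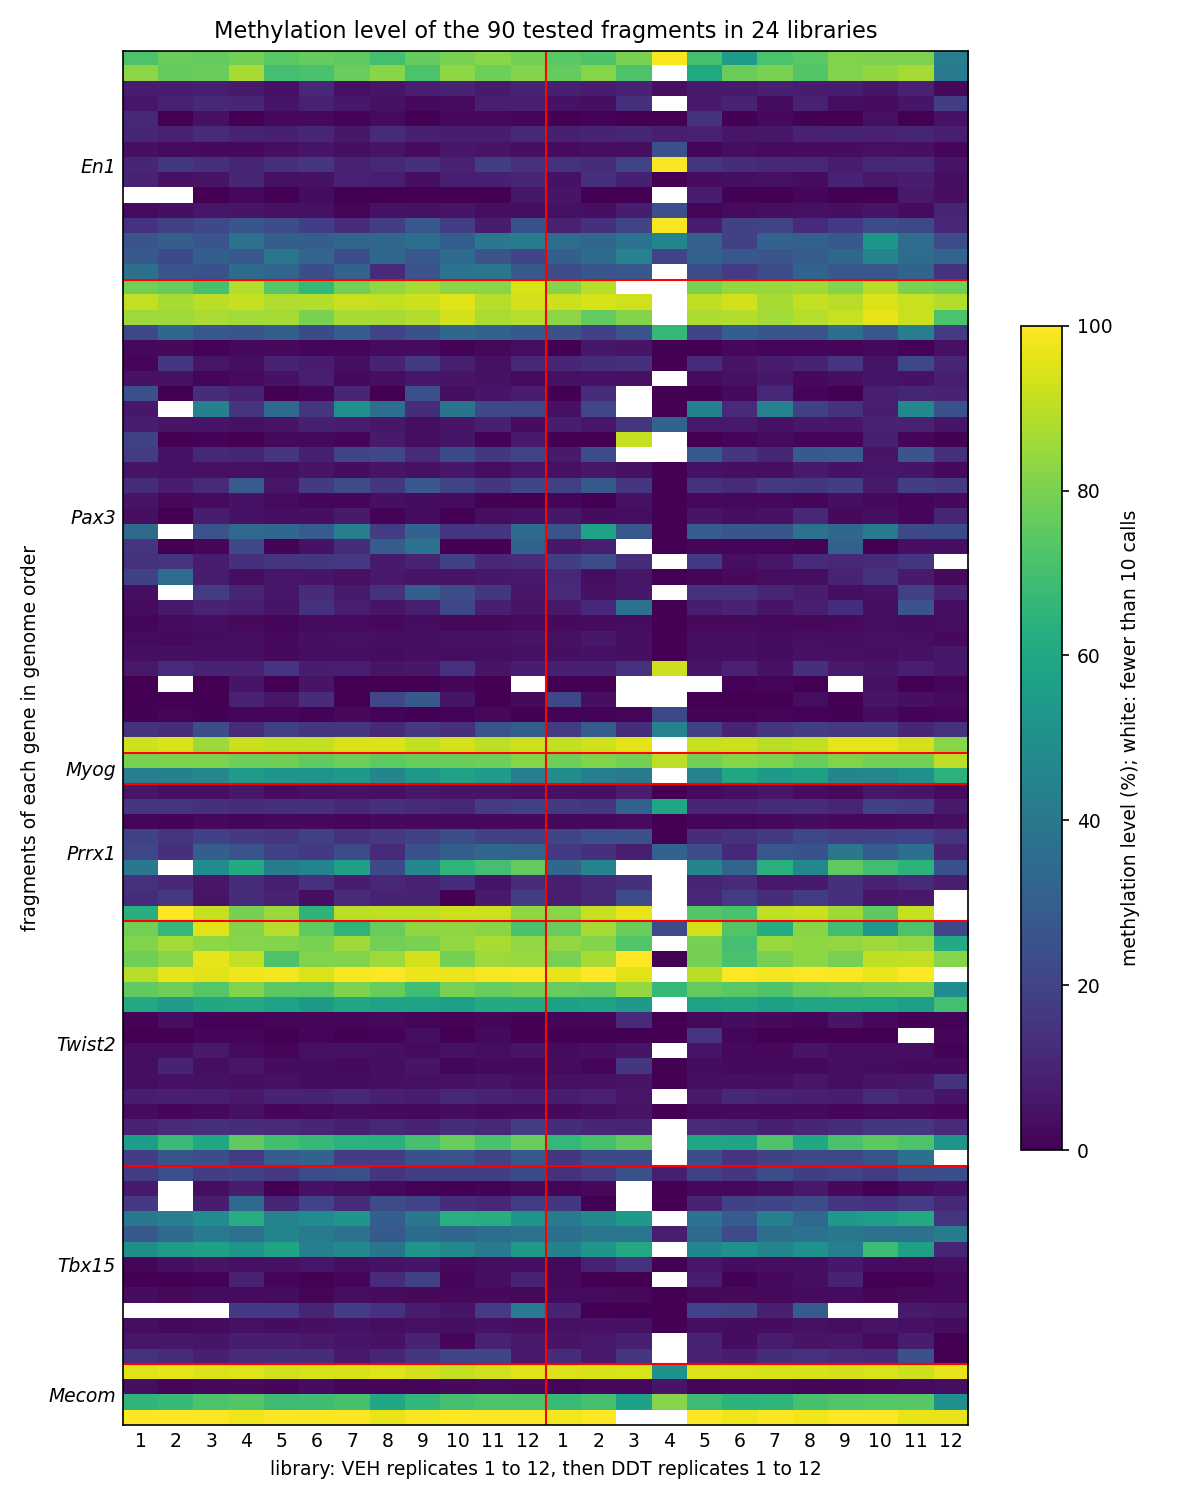
Heat map of methylation level (%, colour) for the 90 tested fragments, in rows by gene, and the 24 libraries, in columns, with white for fewer than 10 calls. The column of DDT replicate 4 has 34 white cells and cells that depart from their row in both directions.

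To give each litter 1 value per gene, the deviations of its levels from the fragment means were averaged over the tested fragments of the gene. None of the 7 genes passed an adjusted p of 0.05, where 0% of 3101 genes did, and none an unadjusted 0.05, where 3.68% of genes did. In the dermomyotome genes the shift from VEH to DDT was 0.766 points for En1 (95% interval -3.16 to 4.69) and 0.356 for Pax3 (-1.13 to 1.84). For Myog it was 2.08 points (-1.40 to 5.55). In the mesenchymal genes it was 0.421 for Prrx1 (-2.67 to 3.51) and -2.50 for Twist2 (-6.21 to 1.22). For Tbx15 it was -2.03 (-4.56 to 0.511) and for Mecom -1.39 (-3.27 to 0.482). Adjusted p from the ANOVA ranged from 0.837 to 0.954. DDT replicate 4 was the highest library for En1 and Prrx1 and the lowest for Twist2, Tbx15 and Mecom. Without DDT replicates 4 and 12 the shifts were -0.404 for En1, 0.393 for Pax3, 0.122 for Myog, 0.722 for Prrx1, -0.204 for Twist2, -0.578 for Tbx15 and -0.370 for Mecom.

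**Figure D5:**
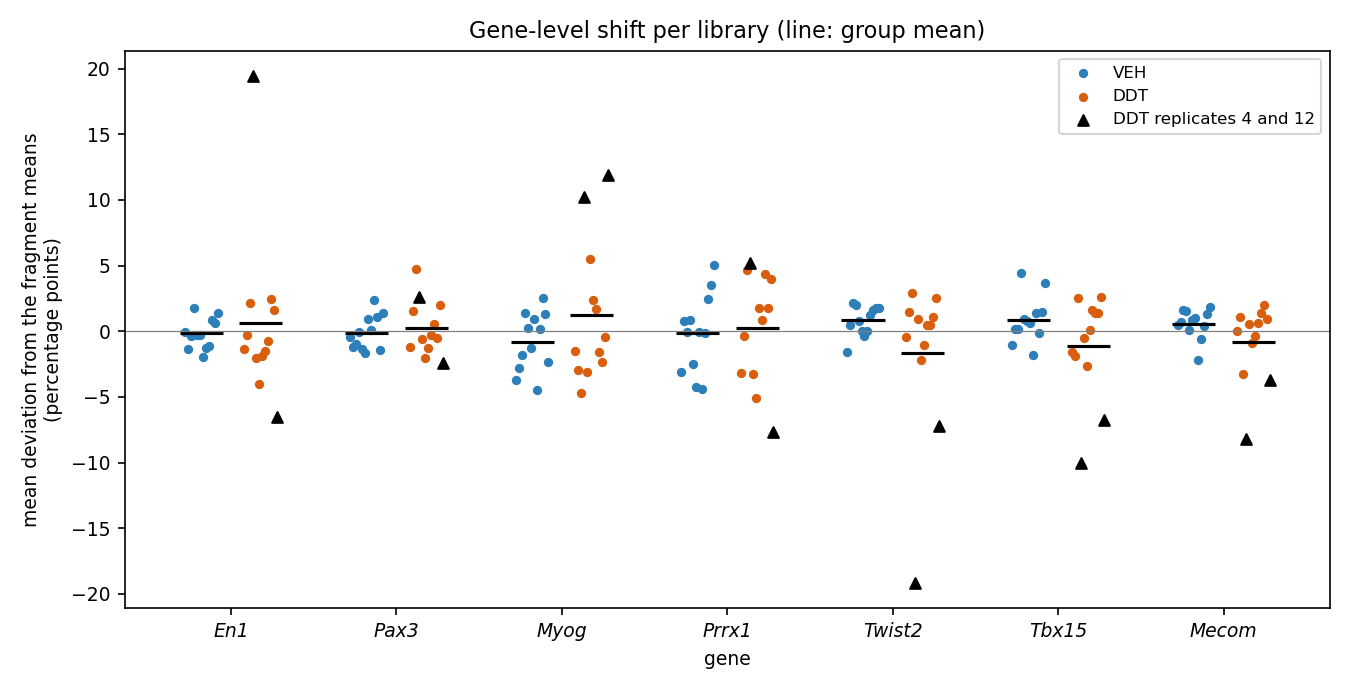
Mean deviation of each library from the fragment means (percentage points) for the 7 genes, VEH in blue, DDT in orange, black triangles for DDT replicates 4 and 12, and lines for group means. The widest DDT values are triangles, from -19.1 for Twist2 to 19.4 for En1.

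Other regulators of the dermomyotome, of muscle and of fat were read from the same fit. Of 22 listed genes 12 had fragments in the table, and 179 of their fragments were tested. None passed the adjusted threshold, and 7 (3.91%) had an unadjusted p under 0.05, near the 4.18% of all tested fragments. Of the 7, 2 were higher in DDT and 5 lower. A fragment of Prox1, a homeobox factor, was at 15.3% ± 5.85 in VEH and 21.5% ± 5.82 in DDT (n = 12 each). A fragment of Gli2, a Hedgehog effector, was at 89.9% ± 2.42 in VEH (n = 12) and 92.04% ± 2.38 in DDT (n = 11). A fragment of Mef2d, a muscle transcription factor, was at 23.0% ± 9.31 in VEH (n = 12) and 13.9% ± 8.43 in DDT (n = 10). A fragment of Shox2, another homeobox factor, was at 4.64% ± 4.70 in VEH and 0.882% ± 1.74 in DDT (n = 11 each). Without DDT replicates 4 and 12 the difference went from 6.20 to 5.07 points for Prox1 and from 2.17 to 1.73 for Gli2. It went from -3.75 to -3.95 for Shox2 and stayed at -9.08 for Mef2d. The unadjusted ANOVA p of the Gli2 fragment rose from 0.0427 to 0.0867, and those of Prox1, Mef2d and Shox2 stayed under 0.05.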

How the data were processed

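RRBS data came from BAT of 24 pooled litters, 12 VEH and 12 DDT. Per the labels and the study's methods, the authors trimmed 50 bp single-end reads with Scythe and Sickle, aligned them to GRCm38 with Bismark 0.15.0 and Bowtie 2, and deposited counts of methylated and of unmethylated CpG calls per MspI fragment (30 to 220 bp), without normalization, beside an annotation whose release is not given in the sources used here. The count table analysed here ends within chromosome 3. The genes and lists were chosen with earlier results of these data known. Levels (at least 10 calls, 8 libraries per group) were tested by ANOVA with Benjamini-Hochberg adjustment over the whole table, and single fragments by two-sided permutation (100000 resamples). At each gene the fragment nearest to the start, the highest and lowest in VEH, the one with the smallest p and any under 0.05 were named, and other regulators where p was under 0.05. Some of these regulators are not reported here. Positions came from GENCODE M21, sequences from GRCm38 and promoter sequences from RefSeq for 5 of the 7 genes. Scripts were tested on simulated data. Alternatives were a quasi-binomial regression, limma 3.58.1, left-out libraries, the replicate block, total calls as a covariate, 5 or 20 calls as the minimum and fragments with a level in every library. Leaving out DDT replicates 3, 4 and 12 was added after seeing the data. Python 3.11.15, NumPy 2.4.6, pandas 2.3.3, SciPy 1.17.1 and R 4.3.3 were used.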

Additional observations from a re-analysis of the deposited data

Results flagged for a closer look

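Of 5 groups of 10 or fewer levels at the named fragments, 2 held a library farther from the rest than Dixon's 95% critical value allows. For normally distributed values chance gives this in about 1 of 20 groups. In both flagged groups several libraries lay at the lowest or highest possible level, so the levels were not normally distributed. The rate of 1 of 20 therefore does not apply, and whether 2 of 5 is an excess cannot be told. At the lowest En1 fragment, in a coding exon, the highest of 10 VEH libraries was at 6.25%, which is 1 methylated call of 16, and the next at 3.30% (3 of 91 calls), while the other libraries but 1 were at 0%. At the highest Twist2 fragment, 114530 bp upstream, the lowest of 10 DDT libraries was at 89.6% (43 of 48 calls) and the next at 95.1%.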

How the results depend on the processing

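None of the 90 fragments and 7 genes passed the adjusted threshold under any of the alternatives run. The smallest adjusted p of the 90 fragments ranged from 0.581 to 0.990 over 33 alternatives. The count of member fragments at an unadjusted p under 0.05, 1 as reported, was 0 with at least 20 calls, with the depth covariate, with limma, and without DDT replicates 4 and 12 or 3, 4 and 12. It was 6 with the quasi-binomial regression, where 7.72% of all fragments were under 0.05, and 0 to 2 with each library left out. With the replicate block it was 2. Same-numbered VEH and DDT libraries correlated at -0.180 to 0.199, and 3 of 12 pairs were over 0.1. The labels do not say whether the replicate numbers pair the samples, and these correlations cannot settle it. For the Myog fragment p was under 0.05 in 11 of 24 fits with 1 library left out and over it in 13, among them those without DDT replicate 4 or 12 (each 2.12 points, p = 0.0841). The En1 fragment with the smallest p was under 0.05 without VEH replicate 8 (-6.11 points, p = 0.0167), and that of Twist2 without DDT replicate 2 or 5 (-15.1 and -15.7 points). The number of genes under an unadjusted 0.05, 0 as reported, was 1 (Myog) with levels in all 24 libraries. In that setting Myog was represented only by its fragment at chr1:134290153-134290185, described above. Of the fragments of the table, 441 of 10399 were under 0.05 there. Gene-level shifts changed sign as follows: En1 to -0.953 without DDT replicate 4, -0.404 without replicates 4 and 12 and -0.710 without 3, 4 and 12; Pax3 to -0.0614 without DDT replicate 3 and -0.113 without 3, 4 and 12; Prrx1 to -0.0252 without DDT replicate 4 and -0.314 with at least 20 calls; Mecom to 0.0240 without 3, 4 and 12. Over single left-out libraries they ranged from -0.953 to 1.42 for En1, -0.0614 to 0.605 for Pax3 and -0.0252 to 1.15 for Prrx1. Of the 179 fragments of other regulators, 21 were under an unadjusted 0.05 with the quasi-binomial regression and 3 with limma, against 7 with the ANOVA. Of all tested fragments 7.72%, 3.51% and 4.18% were under it, in the same order. The median VEH level of the 90 fragments moved by less than the spread between libraries (12.3% to 12.99%). Fragments without a test limit what is known of Mecom and Myog.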
